A study of Homo sapiens with 24 samples.

Results

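The genes described here are 43 listed targets, antagonists, receptors and core components of the Wnt pathway, out of 60641 gene symbols counted in every library. The list holds names only, with no threshold on a measured value, but it was chosen with earlier results of these data known. They were measured by RNA-seq in 24 libraries of 2 human cancer cell lines, A549 from lung adenocarcinoma and HCT116 from colorectal carcinoma, in 8 groups of 3 libraries. In the 5 knockout (KO) groups, CRISPR/Cas9 had been used to remove the DNA binding domain (DBD) of a noncoding transcript. The groups were A549 MSTRG.2513.6 KO, A549 MSTRG.4401.1 KO, HCT116 MSTRG.2513.6 KO, HCT116 MSTRG.4401.1 KO and HCT116 MSTRG.34636.7 KO, with the wild types A549 WT B, HCT116 WT B and HCT116 WT A. WT A, whose libraries carry the numbers 1A, 2A and 3A, served as wild type for the MSTRG.34636.7 KO libraries of the same numbers, and WT B of the same line for every other KO. Whether a KO line was a single clone, and whether the libraries of a group were separate cultures, is not given in the sources used here, so p-values measure only the spread between these libraries. HCT116 carries a mutant CTNNB1, the gene of beta-catenin, a background that the 5 groups labelled HCT116 would share. Libraries S8 and S9 of HCT116 MSTRG.2513.6 KO resembled A549, as described below, so this background may not hold for them.

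Wnt ligands bind Frizzled receptors (FZD genes) together with the co-receptors LRP5 and LRP6. Without a ligand, a destruction complex that contains AXIN1, AXIN2 and APC marks beta-catenin for degradation. With a ligand, or with stabilised beta-catenin, beta-catenin enters the nucleus and acts with TCF/LEF factors on target genes. Many targets are themselves brakes on the pathway. AXIN2 restores the destruction complex, RNF43 and ZNRF3 are ubiquitin ligases that remove Frizzled receptors from the membrane, NKD1 and NKD2 act on Dishevelled, and NOTUM is a secreted enzyme that strips the lipid from Wnt ligands. DKK1 blocks LRP5 and LRP6 from outside the cell, with KREMEN1 and KREMEN2 as its own receptors, and the SFRP proteins and FRZB bind Wnt ligands directly.

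TCF/LEF factors recognise a short motif whose core reads CTTTGA, or TCAAAG on the other strand. The promoter windows of RefSeq (GRCh38.p14, 250 bases before to 50 bases after each start) held an entry for 26 of the 43 genes. The core was found in 2 of these 26, SP5 and DKK1, and in 12.9% of all 35116 windows, while 1.29% of all windows held it at least 2 times. SP5, a transcription factor and a direct Wnt target, held 3 matches, beginning 147, 109 and 83 bases before the start. DKK1 held 2 matches, beginning 149 and 95 bases before the start. The 250 bases before each start are shown because these genes are the members whose window held the core. The matches are in capitals, SP5 lies at chr2:170715087-170715336 and DKK1 at chr10:52314031-52314280, both on the plus strand.
SP5: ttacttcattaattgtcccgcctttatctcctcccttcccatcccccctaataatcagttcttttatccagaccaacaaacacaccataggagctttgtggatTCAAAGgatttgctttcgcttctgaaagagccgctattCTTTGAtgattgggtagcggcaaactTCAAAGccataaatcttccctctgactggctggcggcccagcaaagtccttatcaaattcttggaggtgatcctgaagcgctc
DKK1: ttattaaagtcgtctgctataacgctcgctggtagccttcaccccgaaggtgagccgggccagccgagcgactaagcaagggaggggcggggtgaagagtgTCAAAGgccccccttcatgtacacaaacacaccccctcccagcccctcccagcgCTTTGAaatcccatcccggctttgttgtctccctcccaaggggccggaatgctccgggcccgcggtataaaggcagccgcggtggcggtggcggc
These sequences show the letters of the reference, and a match in them is not evidence that a factor binds there.

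The libraries held 25799359 to 102261808 counts, and the 3 libraries of A549 MSTRG.4401.1 KO were the shallowest (25799359 to 33205007). That group also had the highest share of mitochondrial counts, 3.50% to 7.87%, against 1.96% to 2.37% in A549 WT B. Of the HCT116 MSTRG.2513.6 KO libraries, S8 and S9 stood apart from S11. Over log2(CPM + 1) of all genes, where CPM scales each count to the library total, S8 and S9 had r of 0.971 to 0.995 with the 9 A549 libraries and of 0.916 to 0.927 with the 12 HCT116 libraries outside their group. S11 had r of 0.913 to 0.920 and 0.972 to 0.987 with the same libraries. The summed level of 8 markers of A549 was 9753 CPM in S8, 9617 CPM in S9 and 230 CPM in S11, against 7322 to 10368 CPM in the A549 libraries and 140 to 206 CPM in the other HCT116 libraries. The 8 intestinal and HCT116 markers summed to 53.3 to 153 CPM in A549 and 101 to 148 CPM in HCT116, so their sum did not separate the lines, and EPHB2 alone stood at 35.9 to 144 CPM in A549. CDKN2A of this list was at 0 in every A549 library and at 36.98 to 59.6 CPM in HCT116, with 37.1 CPM in S11, 0.530 CPM in S8 and 0.215 CPM in S9. CDX2, the intestinal factor, separated the lines as well, with 0 to 1.203 CPM in A549, 13.9 to 23.6 CPM in HCT116, and 18.2 CPM in S11 against 0.636 CPM in S8 and 0.406 CPM in S9. CDX1, another intestinal factor, was at 0 in every library except 3A of MSTRG.34636.7 KO. NKX2-1, the lung factor, stood at 0 to 0.495 CPM in A549 and at 1.15 to 2.38 CPM in the 12 other HCT116 libraries. CDH17 of the intestinal list stood at 5.21 to 16.3 CPM in A549 and at 0.116 to 1.37 CPM in the same HCT116 libraries. Both thus ran against their lists, and neither line carried all markers of its tissue. S8 and S9 keep their labels below, and the counts and values of their own KO are also given without them.

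**Figure D1:**
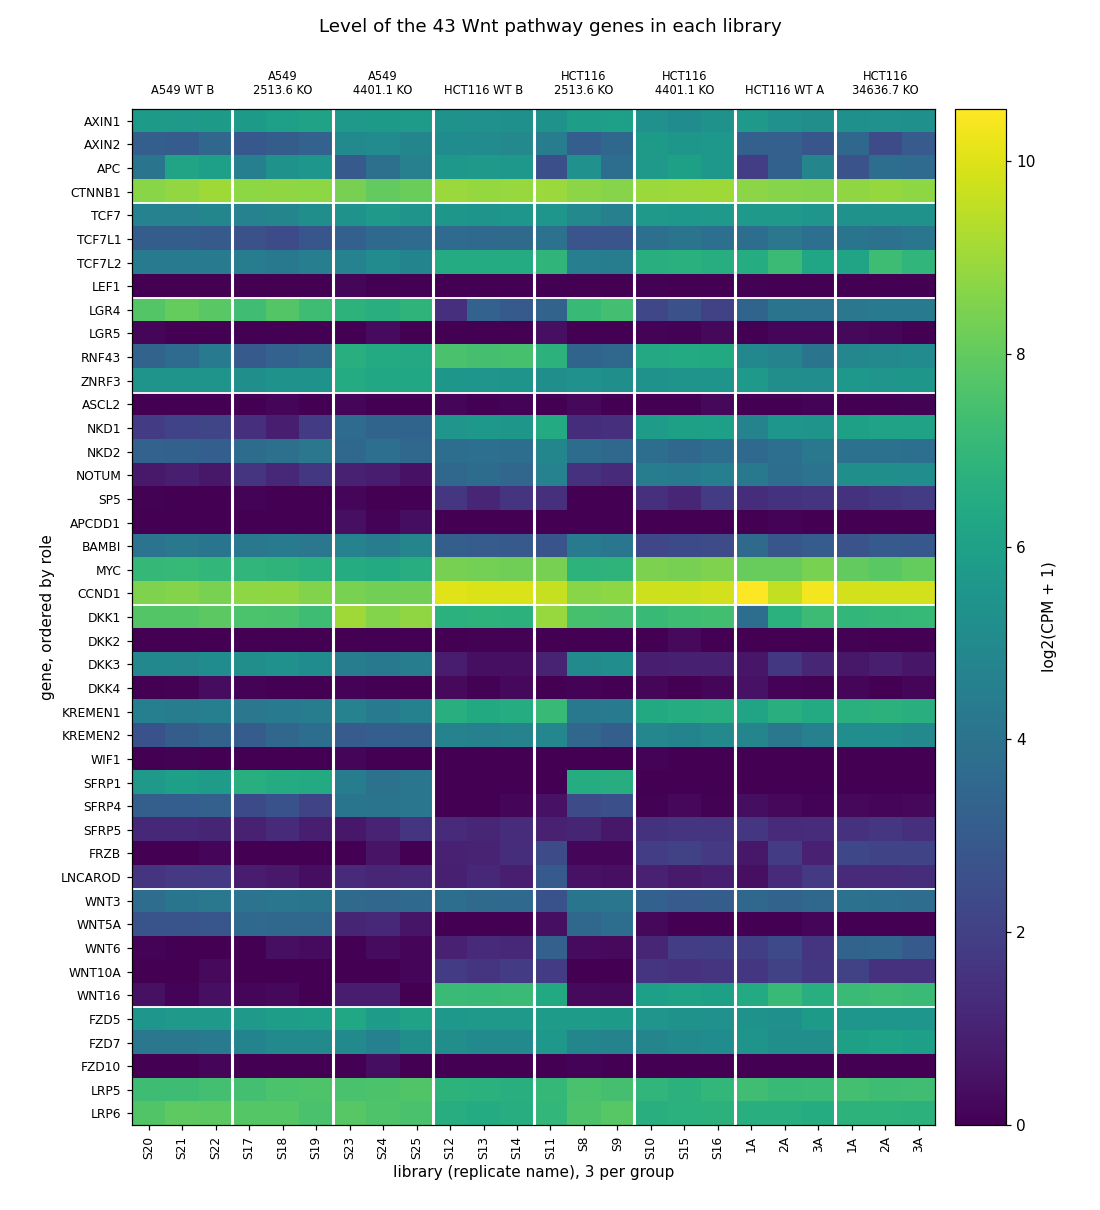
Each row is one of the 43 genes, ordered by role, and each column is a library, with 3 libraries per group. Colour gives log2(CPM + 1). S8 and S9 of HCT116 MSTRG.2513.6 KO show the A549 pattern, with SFRP1 at 91.9 and 94.4 CPM, while SFRP1 is at 0 in S11 and in the 12 HCT116 libraries of the other groups.

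The wild types differed widely in these genes. Compared with A549 WT B, 14 of 35 tested members were higher in HCT116 WT B and 9 were lower. Over all genes, 18.5% were called higher and 17.2% lower, at an adjusted p (edgeR, quasi-likelihood, Benjamini-Hochberg) below 0.1 and an absolute log2 fold change above 1, the rule used throughout. The median absolute log2 fold change was 1.48 over the members and 0.72 over all genes. Because the members were chosen with earlier results of these data known, these contrasts with all genes are descriptive only. The groups did not overlap in any of the 23 called members, a property that the calling rule itself favours. The share without overlap among all called genes was not counted, so nothing particular to the members can be read from it.

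Targets and feedback inhibitors formed a large part of those that were higher in HCT116. AXIN2 stood at 33.7, 32.8 and 30.4 CPM in HCT116 WT B and at 8.03, 7.32 and 10.03 CPM in A549 WT B, 3.20-fold higher (log2 1.68, SE 0.12, adjusted p = 1.74e-05). RNF43 was 10.97-fold higher, NKD1 12.1-fold and NOTUM 12.9-fold (adjusted p = 1.06e-05, 3.24e-07 and 3.95e-06). RNF43 stood at 182, 169 and 174 CPM in HCT116 WT B, NKD1 at 44.6, 47.5 and 46.2 CPM and NOTUM at 10.5, 12.1 and 10.03 CPM, and the A549 WT B levels of these genes are given with its KOs below. Both KREMEN genes, TCF7L2, MYC and CCND1 were also higher, by 2.07-fold (MYC) to 3.76-fold (TCF7L2). KREMEN1 stood at 96.0, 83.4 and 91.2 CPM in HCT116 WT B against 22.4, 20.3 and 22.4 CPM in A549 WT B, and KREMEN2 at 25.3, 22.8 and 25.2 CPM against 5.32, 7.65 and 9.19 CPM. TCF7L2, a TCF/LEF factor, stood at 88.4, 88.3 and 88.1 CPM against 19.8, 19.9 and 18.9 CPM. MYC stood at 332, 326 and 299.9 CPM against 129, 133 and 123 CPM, and CCND1, the gene of cyclin D1, at 1040.2, 1015 and 969 CPM against 359.7, 379.9 and 342 CPM. SP5 had 316 counts over the HCT116 WT B libraries and 3 over A549 WT B, a ratio of 95.3 with a 95% counting interval of 32.3 to 465 (exact binomial), which covers counting error only. Of these feedback genes, AXIN2 and RNF43 depended on which HCT116 wild type was used, as described for WT A below.

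Of 9 secreted antagonists (DKK1 to DKK4, WIF1, SFRP1, SFRP4, SFRP5 and FRZB), 6 were tested, of which 4 were called lower in HCT116 WT B and 1 higher. SFRP1 stood at 50.6, 60.2 and 55.3 CPM in A549 WT B and had no count in HCT116 WT B, at least 1080-fold lower against a floor of 3 counts per library. WNT5A, a ligand best known for signalling without beta-catenin, stood at 5.66, 5.65 and 6.04 CPM in A549 WT B and had no count in HCT116 WT B, at least 113-fold lower. Neither gene was detectable in HCT116 WT B at this depth, while WNT5A stood at 0.147 CPM in 3A of WT A. DKK3 was 77.3-fold, SFRP4 204-fold and LGR4 46.9-fold lower in HCT116 (adjusted p = 1.89e-06, 5.64e-06 and 8.95e-05). The sizes of these differences depended on the HCT116 libraries, and with WT A they were 26.4-fold, 51.3-fold and 19.96-fold, all called. DKK3 stood at 0.744, 0.343 and 0.349 CPM in HCT116 WT B and at 29.3, 28.7 and 33.8 CPM in A549 WT B. SFRP4 stood at 8.12, 7.89 and 8.30 CPM in A549 WT B and had 1, 1 and 6 counts in HCT116 WT B, so that its log2 fold change was -8.94 without S14 and -7.67 with all libraries. LGR4, a receptor for R-spondins, stood at 208, 265 and 225 CPM in A549 WT B and at 1.77, 9.02 and 6.84 CPM in HCT116 WT B. LRP6 was 2.95-fold, BAMBI 2.61-fold, DKK1 2.41-fold and LNCAROD 2.78-fold lower. LRP6 stood at 94.0, 87.6 and 93.9 CPM in HCT116 WT B against 204, 240 and 235 CPM in A549 WT B, and BAMBI at 8.11, 7.45 and 6.80 CPM against 15.1, 17.5 and 15.98 CPM. BAMBI is a decoy receptor of the TGF-beta family that is also a Wnt target.

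Ligands split by line. WNT16 stood at 144, 139.7 and 142 CPM in HCT116 WT B and at 0.391, 0.0673 and 0.337 CPM in A549 WT B, 454-fold higher (log2 8.83, SE 0.34, adjusted p = 8.66e-07). WNT6, WNT10A and the Wnt-binding protein FRZB were also called higher, at 0.973 to 2.69 CPM in HCT116 WT B against at most 0.192 CPM in A549 WT B. WNT3 was 1.55-fold lower in HCT116, under the fold threshold.

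Some members differed little. CTNNB1 stood at 405, 450.4 and 518 CPM in A549 WT B and at 493, 469 and 480.3 CPM in HCT116 WT B (log2 fold change -0.19, SE 0.063, adjusted p = 0.0373), with overlapping groups. The fitted value is negative after TMM scaling, although the mean CPM, which is not scaled so, was higher in HCT116 (481 against 458), so no direction is given for it. AXIN1, LRP5, TCF7, TCF7L1, FZD5, FZD7, ZNRF3 and NKD2 passed the adjusted p but had absolute log2 fold changes of 0.21 to 0.86. APC (log2 -0.22, SE 0.44) and SFRP5 (log2 -0.11, SE 0.23) did not pass, and their mean CPM was likewise higher in HCT116. LGR5, ASCL2, LEF1, APCDD1, DKK2, DKK4, WIF1 and FZD10 did not pass the filter on low counts, and none exceeded 0.414 CPM in any of the 24 libraries. LGR5 and ASCL2 mark intestinal stem cells, and LEF1 is the fourth TCF/LEF factor.

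Levels are compared between genes only per kilobase of exon. On this scale CCND1 had the highest level in HCT116 WT B (212 ± 7.53 CPM per kb, SD, n = 3), followed by MYC (52.3 ± 2.82), DKK1 (48.6 ± 0.782) and WNT16 (43.5 ± 0.665). In A549 WT B the order began with DKK1 (98.1 ± 6.41), CCND1 (75.7 ± 4.03), CTNNB1 (38.9 ± 4.85) and LGR4 (36.7 ± 4.605). MYC and DKK1 in HCT116 lay close to each other for their SDs, as did CTNNB1 and LGR4 in A549, and the other neighbours named were further apart than their SDs. DKK1, an inhibitor, was thus among the 3 highest members per kb in both wild types.

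**Figure D2:**
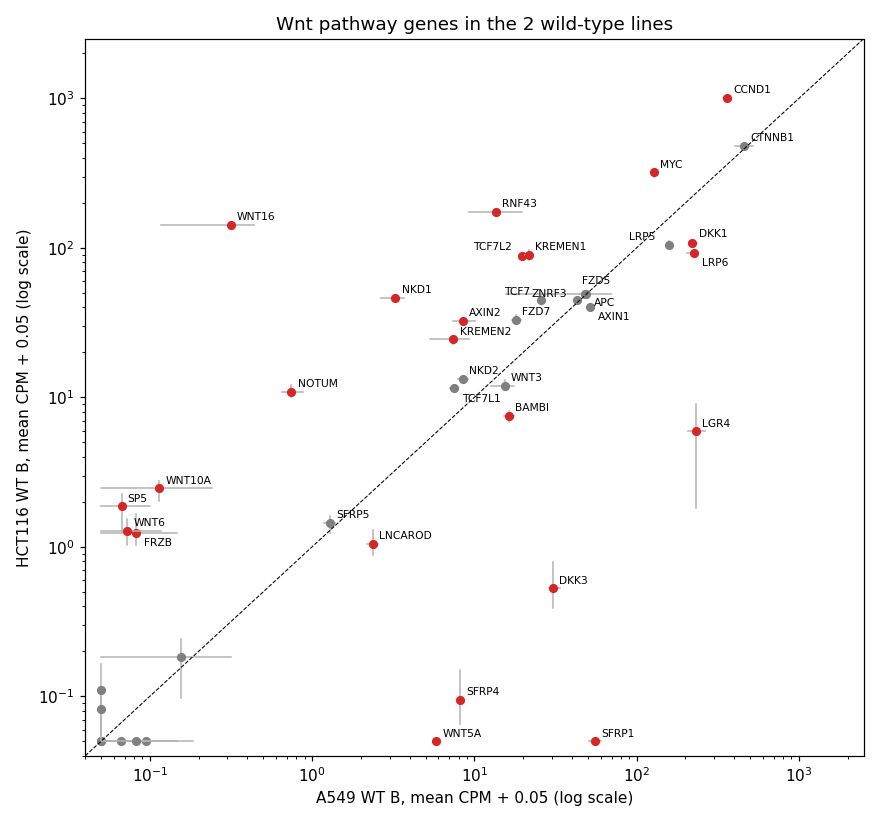
Mean CPM plus 0.05 of each gene in A549 WT B (x axis) and HCT116 WT B (y axis), both on log scales. Red points are the 23 genes called, grey points the others, grey lines run from the lowest to the highest of 3 libraries, and the dashed line marks equal levels. SFRP1 and WNT5A lie on the lower edge because HCT116 WT B has no count of them, and points near 0 in both lines are not named.

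HCT116 WT A and WT B have no KO between them, yet 3 of 32 tested members were called. RNF43 stood at 29.0, 25.4 and 15.6 CPM in WT A and at 182, 169 and 174 CPM in WT B, 7.59-fold lower in WT A (log2 -2.92, SE 0.22, adjusted p = 0.000116). AXIN2 stood at 8.37, 8.27 and 6.04 CPM in WT A, 4.33-fold lower than in WT B (log2 -2.11, SE 0.16, adjusted p = 0.00013). The groups did not overlap for either gene. WNT6, a ligand, stood at 2.84, 4.07 and 1.97 CPM in WT A and at 0.973, 1.48 and 1.25 CPM in WT B, 2.34-fold higher (adjusted p = 0.0516), and lost its call without S12, S13 or S14 of WT B or 2A of WT A, with log2 fold changes of 0.97 to 1.44 over the libraries left out. Over all genes, 3.16% were called higher and 3.9% lower. APC, at 2.78, 8.70 and 26.4 CPM in WT A and 48.7, 50.3 and 48.8 CPM in WT B, did not pass (adjusted p = 0.13). When WT A stood in for WT B, the log2 difference of AXIN2 between HCT116 and A549 was -0.38 (adjusted p = 0.182), and RNF43 lost its call with a log2 fold change of 0.59. The call of these genes as higher in HCT116 thus held for 1 of the 2 wild-type sets. DKK1, LNCAROD and MYC also lost their calls between the lines with WT A, with log2 fold changes of -1.49, -0.91 and 0.98.

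DKK1 and LNCAROD lie side by side on chromosome 10, with 133 kb between them. DKK1 spans chr10:52314281-52318042 on the plus strand and LNCAROD, a long noncoding RNA gene, chr10:52450874-52755509 on the minus strand (GENCODE 44, GRCh38). The study's methods place a deleted sequence between them, and name A549 for it but not the transcript it belongs to, and 2 transcripts were targeted in A549, so which KO carries it is not given in the sources used here. PRKG1-AS1 has an exon on the other strand within DKK1, and since the strand setting of the counting is not given, reads of the 2 genes may not be told apart.

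In A549, DKK1 stood at 210.2, 209 and 234 CPM in WT B, at 187, 180.2 and 155 CPM in MSTRG.2513.6 KO and at 527, 384 and 442 CPM in MSTRG.4401.1 KO. The MSTRG.2513.6 KO libraries lay below the wild type and did not pass (log2 -0.32, SE 0.11, adjusted p = 0.212). All 3 MSTRG.4401.1 KO libraries lay above the wild type, and DKK1 passed the adjusted p with a log2 fold change of 0.97 (SE 0.13, adjusted p = 0.00149), just under the fold threshold. It was called without library S24 (log2 1.07) and with upper-quartile normalisation (log2 1.13).

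LNCAROD fell in A549 MSTRG.2513.6 KO. It stood at 0.767, 0.629 and 0.300 CPM there against 2.12, 2.37 and 2.502 CPM in WT B, 4.04-fold lower (log2 -2.01, SE 0.36, adjusted p = 0.0238). The groups did not overlap, and the call held under all 13 alternatives, with log2 fold changes of -2.30 to -1.70. In A549 MSTRG.4401.1 KO it stood at 1.36, 1.16 and 1.26 CPM (log2 -0.96, SE 0.24, adjusted p = 0.0171), just short of the fold threshold, and 6 of 13 alternatives called it lower. These levels rest on few reads, 255 counts at most in any library.

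In HCT116, DKK1 stood at 106, 109.8 and 108 CPM in WT B and at 141, 154 and 160.02 CPM in MSTRG.4401.1 KO, with a log2 fold change of 0.47 (SE 0.049, adjusted p = 0.00124) under the fold threshold. In MSTRG.34636.7 KO it stood at 127, 128 and 131 CPM, and WT A was spread from 12.8 in 1A to 107 in 2A and 148 in 3A (adjusted p = 0.765). Without 1A of WT A the log2 fold change was -0.0037, against 0.52 with all libraries. The 12.8 CPM of 1A was the lowest DKK1 level of all 24 libraries.

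In HCT116 MSTRG.2513.6 KO, S11 had 481 CPM of DKK1 and 7.02 CPM of LNCAROD, the highest LNCAROD level of all libraries. S8 and S9 had 178 and 167 CPM of DKK1 and 0.445 and 0.334 CPM of LNCAROD, inside the range of A549 MSTRG.2513.6 KO for both. With S8 and S9 left out, S11 against WT B gave a log2 fold change of 2.07 (SE 0.053, adjusted p = 0.000256) for DKK1 and 2.72 (SE 0.29, adjusted p = 0.00282) for LNCAROD. That fit assumes that the lone library varies as the wild type does. Without S11, LNCAROD had a log2 fold change of -1.04. In the other HCT116 comparisons LNCAROD did not pass. It stood at 0.930, 0.680 and 0.868 CPM in MSTRG.4401.1 KO against 0.915, 1.25 and 0.832 CPM in WT B (log2 -0.29). In MSTRG.34636.7 KO it stood at 1.39, 1.44 and 1.59 CPM against 0.338, 1.36 and 2.48 CPM in WT A (log2 0.04).

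**Figure D3:**
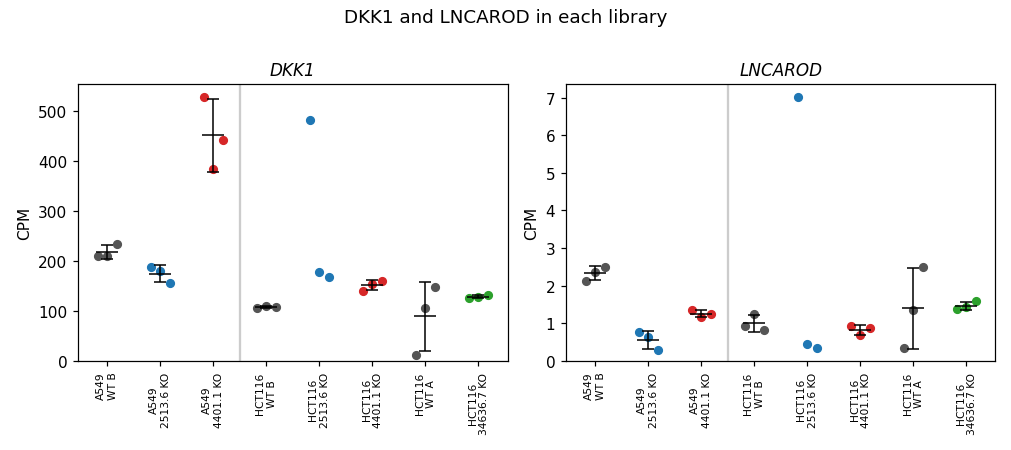
CPM of DKK1 and LNCAROD in each library (points) by group, with mean and SD over 3 libraries as black bars. No mean is drawn for HCT116 MSTRG.2513.6 KO, where S11, at 481 and 7.02 CPM, lies far above S8 and S9. The 3 A549 MSTRG.4401.1 KO libraries lie above A549 WT B for DKK1 and below it for LNCAROD.

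In A549 MSTRG.4401.1 KO, 3 of 31 tested members were called higher and 4 lower. Over all genes, 11.1% were called higher and 4.32% lower, so the number of members called higher is near the background. The members that rose were AXIN2, RNF43 and NKD1, all of them negative feedback genes, and those that fell were SFRP1, WNT5A, LGR4 and APC. The median log2 fold change was 0.01 over the members and 0.12 over all genes, and the median absolute value 0.68 and 0.52. Upper-quartile normalisation moved the median of all genes to 0.28, so the values below are relative to that shift. With it, 6 members were called higher and 4 lower. Of all genes, 18.7% were then called in either direction, against 15.4% with TMM. Of all genes called, 71.9% were higher with TMM and 83.1% with upper-quartile normalisation.

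RNF43 rose most. It stood at 99.2, 85.3 and 80.5 CPM in the KO and at 9.21, 11.9 and 19.5 CPM in WT B, 6.26-fold higher (log2 2.65, SE 0.22, adjusted p = 0.000183). AXIN2 stood at 32.1, 32.6 and 27.2 CPM in the KO, 3.44-fold higher (log2 1.78, SE 0.14, adjusted p = 0.00014) than the 8.03, 7.32 and 10.03 CPM of WT B. NKD1 stood at 11.7, 9.42 and 9.57 CPM in the KO against 2.62, 3.36 and 3.66 CPM in WT B, 3.03-fold higher (log2 1.60, SE 0.18, adjusted p = 0.000813). The groups did not overlap for any of these genes, and each call held under all 13 alternatives. ZNRF3, the ligase paired with RNF43, stood at 89.2, 78.8 and 76.4 CPM against 43.04, 42.6 and 42.9 CPM, 1.79-fold higher (adjusted p = 0.000873) and under the fold threshold. RNF43 shares exon sequence with ENSG00000285897 on its strand and with TSPOAP1-AS1 on the other, so its counts may hold reads of either. AXIN2 and APC likewise share exon sequence on their own strand, with ENSG00000266076 and ENSG00000258864, and NKD1, NOTUM and LGR4 with genes on the other strand.

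The feedback genes did not all move. NOTUM stood at 0.964, 0.814 and 0.419 CPM in the KO and at 0.662, 0.824 and 0.601 CPM in WT B, with overlapping groups (adjusted p = 0.978). SP5 and APCDD1 were under the filter and were not tested. SP5 had 4, 0 and 0 counts in the KO and 3, 0 and 0 in WT B. APCDD1, a Wnt target that inhibits the pathway at the membrane, had 11, 2 and 8 counts in the KO and none in WT B, at least 4.11-fold higher against a floor of 3 counts per library. NKD2 had a log2 fold change of 0.35 (adjusted p = 0.15). MYC and CCND1, targets that drive growth, had log2 fold changes of -0.59 (adjusted p = 0.00499) and -0.25 (adjusted p = 0.116).

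WNT5A fell from 5.66, 5.65 and 6.04 CPM in WT B to 1.14, 1.28 and 0.534 CPM in the KO, 6.20-fold (log2 -2.63, SE 0.30, adjusted p = 0.000789). SFRP1 fell from 50.6, 60.2 and 55.3 CPM to 20.4, 14.4 and 16.8 CPM, 3.41-fold (log2 -1.77, SE 0.14, adjusted p = 0.00014). LGR4 fell to 110.3, 96.6 and 115 CPM, 2.30-fold (adjusted p = 0.000651). The KO and wild-type libraries did not overlap for these genes, whose calls held under all 13 alternatives. APC stood at 6.93, 13.8 and 23.2 CPM in the KO and at 15.5, 69.2 and 61.6 CPM in WT B, so the groups overlapped through S20 of WT B. It was 3.43-fold lower (log2 -1.78, SE 0.56, adjusted p = 0.0406) and lost its call without S24 of the KO or S21 of WT B.

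Among the other antagonists, SFRP4 was 1.87-fold higher (adjusted p = 0.00273) and DKK3 1.61-fold lower (adjusted p = 0.00453), both under the fold threshold. CTNNB1 stood at 334, 253 and 291 CPM against 405, 450.4 and 518 CPM, 1.65-fold lower (adjusted p = 0.00455). TCF7 was 1.67-fold and FZD7 1.65-fold higher (adjusted p = 0.00333 and 0.016). AXIN1, KREMEN1, KREMEN2 and SFRP5 had absolute log2 fold changes of at most 0.09. The shallower depth and the higher mitochondrial share of this KO move with all of these differences, and their part in them was not tested.

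**Figure D4:**
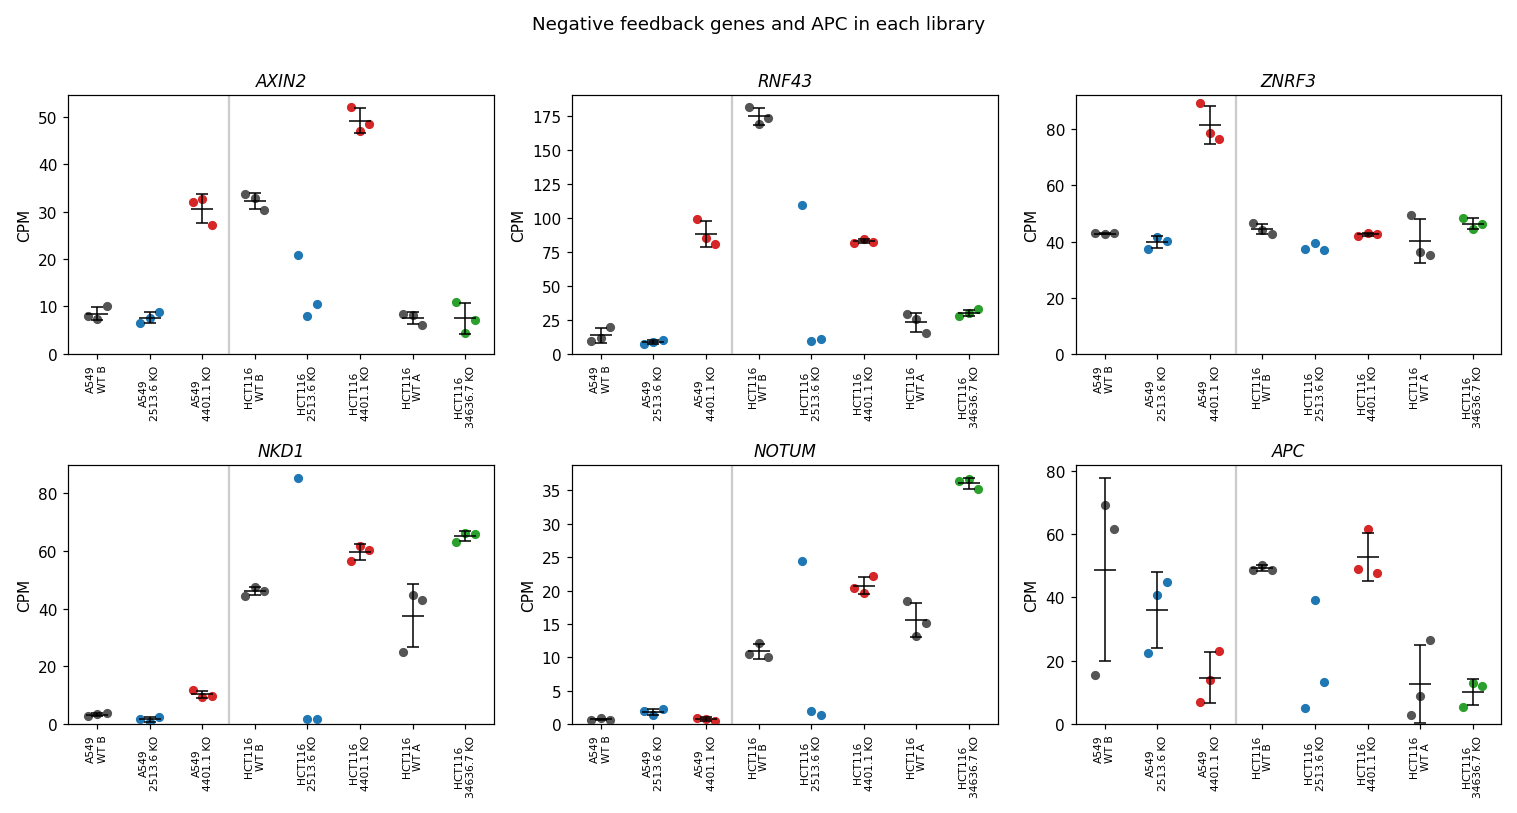
CPM of AXIN2, RNF43, ZNRF3, NKD1, NOTUM and APC in each library (points) by group, with mean and SD over 3 libraries as black bars. No mean is drawn for HCT116 MSTRG.2513.6 KO, in which S11 differs from S8 and S9. AXIN2, RNF43, ZNRF3 and NKD1 lie above the wild type in A549 MSTRG.4401.1 KO, and AXIN2 and RNF43 lie far lower in HCT116 WT A than in WT B.

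A549 MSTRG.2513.6 KO changed 2 of 30 tested members, LNCAROD as given above and NOTUM. Over all genes, 1.13% were called higher and 1.79% lower, so 1 member in each direction is near the background. NOTUM stood at 1.97, 1.31 and 2.23 CPM in the KO and at 0.662, 0.824 and 0.601 CPM in WT B, 2.61-fold higher (log2 1.38, SE 0.29, adjusted p = 0.046). The groups did not overlap, but the call was lost without S17 of the KO or without any of the 3 wild-type libraries, over which the log2 fold change ranged from 1.26 to 1.57. AXIN2 stood at 6.53, 7.65 and 8.84 CPM, and overlapped the wild type (log2 -0.14, SE 0.17, adjusted p = 0.742).

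A further 5 members passed the adjusted p with smaller changes. SFRP1 stood at 95.3, 89.1 and 85.1 CPM, 1.62-fold above WT B (adjusted p = 0.0145), and WNT5A at 11.1, 10.5 and 10.3 CPM, 1.84-fold above it (adjusted p = 0.0168). Both were called lower in A549 MSTRG.4401.1 KO, which shares its wild-type libraries with this KO. FZD7 was 1.67-fold and NKD2 1.66-fold higher (adjusted p = 0.0163 and 0.058), and SFRP4 was 1.86-fold lower (adjusted p = 0.0578). CTNNB1, at 431, 435 and 424 CPM, had a log2 fold change of -0.09 (SE 0.097, adjusted p = 0.72).

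HCT116 MSTRG.4401.1 KO changed 3 of 32 tested members, with FRZB higher and RNF43 and WNT16 lower. Over all genes, 0.996% were called higher and 1.62% lower. RNF43 stood at 81.6, 84.8 and 82.6 CPM in the KO and at 182, 169 and 174 CPM in WT B, 2.13-fold lower (log2 -1.09, SE 0.041, adjusted p = 1.3e-05). WNT16 fell from 144, 139.7 and 142 CPM to 60.3, 65.6 and 63.4 CPM, 2.27-fold (log2 -1.18, SE 0.043, adjusted p = 1.3e-05). FRZB rose from 0.973, 1.01 and 1.60 CPM to 2.75, 3.21 and 2.36 CPM, 2.30-fold (adjusted p = 0.0218). No KO library overlapped the wild type for these genes. All 3 calls were lost when all HCT116 libraries were fitted together. With S8 and S9 left out of that fit, RNF43 (log2 -1.09) and WNT16 (log2 -1.19) were called, and FRZB was not (log2 1.19, adjusted p = 0.221). The calls of FRZB and WNT16 were also lost against WT A.

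The direction of RNF43 depended on the wild type. Against WT A, whose RNF43 was low, the same KO libraries were 3.55-fold higher (log2 1.83, SE 0.21, adjusted p = 0.000852). AXIN2 stood at 52.2, 47.0 and 48.5 CPM in the KO, 1.51-fold above WT B (log2 0.59, SE 0.069, adjusted p = 0.00202) and 6.49-fold above WT A (adjusted p = 3.3e-05). So AXIN2 lay above both wild types, and the highest AXIN2 level of all libraries, 52.2 CPM, was in S10 of this KO. NOTUM, at 20.4, 19.6 and 22.1 CPM, was 1.89-fold above WT B (adjusted p = 0.00182), and BAMBI 1.88-fold below it (adjusted p = 0.00443). NKD1, WNT3, CCND1, FZD5 and LRP6 also passed the adjusted p, with absolute log2 fold changes of 0.16 to 0.60. CTNNB1 stood at 492, 505 and 518 CPM against 493, 469 and 480.3 CPM, with overlapping groups (log2 0.06, SE 0.035, adjusted p = 0.354).

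HCT116 MSTRG.2513.6 KO gave no called member of 34 tested by edgeR when all 3 libraries were used, and 8 by DESeq2. An unadjusted edgeR p under 0.05 was reached by 9 members. The share of all genes reaching it was not counted, so no excess among the members can be read from it. Over all genes, edgeR called 0.66% higher and 0.273% lower, and DESeq2 called 8.26%. The spread within the group was wide. NKD1 stood at 85.5 CPM in S11, 1.61 CPM in S8 and 1.74 CPM in S9, against 44.6 to 47.5 CPM in WT B. SFRP1 stood at 0, 91.9 and 94.4 CPM and WNT5A at 0.358, 10.4 and 12.9 CPM in the same order. RNF43 stood at 109, 9.51 and 10.6 CPM, LGR4 at 9.19, 135 and 165 CPM, and WNT16 at 84.2, 0.191 and 0.167 CPM. For each of these genes S8 and S9 lay near A549 and S11 near HCT116. AXIN2 stood at 20.9, 7.92 and 10.6 CPM and CTNNB1 at 488, 411 and 393 CPM. Without S11, 22 members and 37.2% of all genes were called.

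With S11 alone against the 3 WT B libraries, 7 of 34 tested members were called, in a fit that takes its spread from the wild type only. DKK1, LNCAROD, WNT6, FRZB and NOTUM were higher and APC and WNT3 lower, where 5.2% of all genes were called higher and 3.49% lower. WNT6 stood at 8.28 CPM against 0.973 to 1.48 CPM (log2 2.65, SE 0.28, adjusted p = 0.00274), and FRZB at 4.32 CPM against 0.973 to 1.60 CPM. APC stood at 4.98 CPM against 48.7 to 50.3 CPM (log2 -3.39, SE 0.10, adjusted p = 0.000256). NOTUM stood at 24.5 CPM (log2 1.08, adjusted p = 0.00688) and WNT3 at 5.34 CPM against 11.2 to 12.99 CPM (log2 -1.23, adjusted p = 0.00602). AXIN2, at 20.9 CPM, was 1.64-fold lower and under the fold threshold. CTNNB1, at 488 CPM, had a log2 fold change of -0.06 (adjusted p = 0.42). These values compare 1 KO library with the wild type and have no replicate check.

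HCT116 MSTRG.34636.7 KO raised 2 of 33 tested members, NOTUM and WNT6, and lowered none. Over all genes, 0.729% were called higher and 0.607% lower. NOTUM stood at 36.5, 36.7 and 35.1 CPM in the KO and at 18.4, 13.2 and 15.2 CPM in WT A, 2.30-fold higher (log2 1.203, SE 0.16, adjusted p = 0.0211). WNT6 stood at 9.12, 9.70 and 6.93 CPM against 2.84, 4.07 and 1.97 CPM, 2.92-fold higher (log2 1.55, SE 0.27, adjusted p = 0.0548). For both genes the KO lay above the wild type in every library. Both calls were lost without any 1 of the 3 KO libraries, and over all libraries left out the log2 fold changes were 1.07 to 1.33 for NOTUM and 1.34 to 1.80 for WNT6, which also failed at an adjusted p of 0.05. Against WT B, NOTUM was 3.27-fold and WNT6 6.79-fold higher (adjusted p = 1.26e-05 and 5.83e-05).

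FZD7, a Frizzled receptor, was 1.64-fold higher in MSTRG.34636.7 KO (adjusted p = 0.0567), with 60.6 to 67.7 CPM against 36.0 to 43.3 CPM, under the fold threshold. NKD1 (log2 0.79), FRZB (log2 1.41) and KREMEN2 (log2 0.56) did not pass, with adjusted p of 0.146, 0.223 and 0.234. AXIN2 stood at 10.9, 4.51 and 7.05 CPM against 8.37, 8.27 and 6.04 CPM in WT A, with overlapping groups (log2 -0.01, SE 0.31, adjusted p = 0.99). RNF43, at 28.0, 29.7 and 32.8 CPM, likewise overlapped WT A (adjusted p = 0.456). Both genes were thus low in all 6 libraries numbered 1A to 3A, and set against WT B they were called lower, at log2 -2.13 and -2.55. CTNNB1 stood at 446, 464 and 432 CPM against 411, 394 and 383 CPM (log2 0.17, SE 0.12, adjusted p = 0.553).

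**Figure D5:**
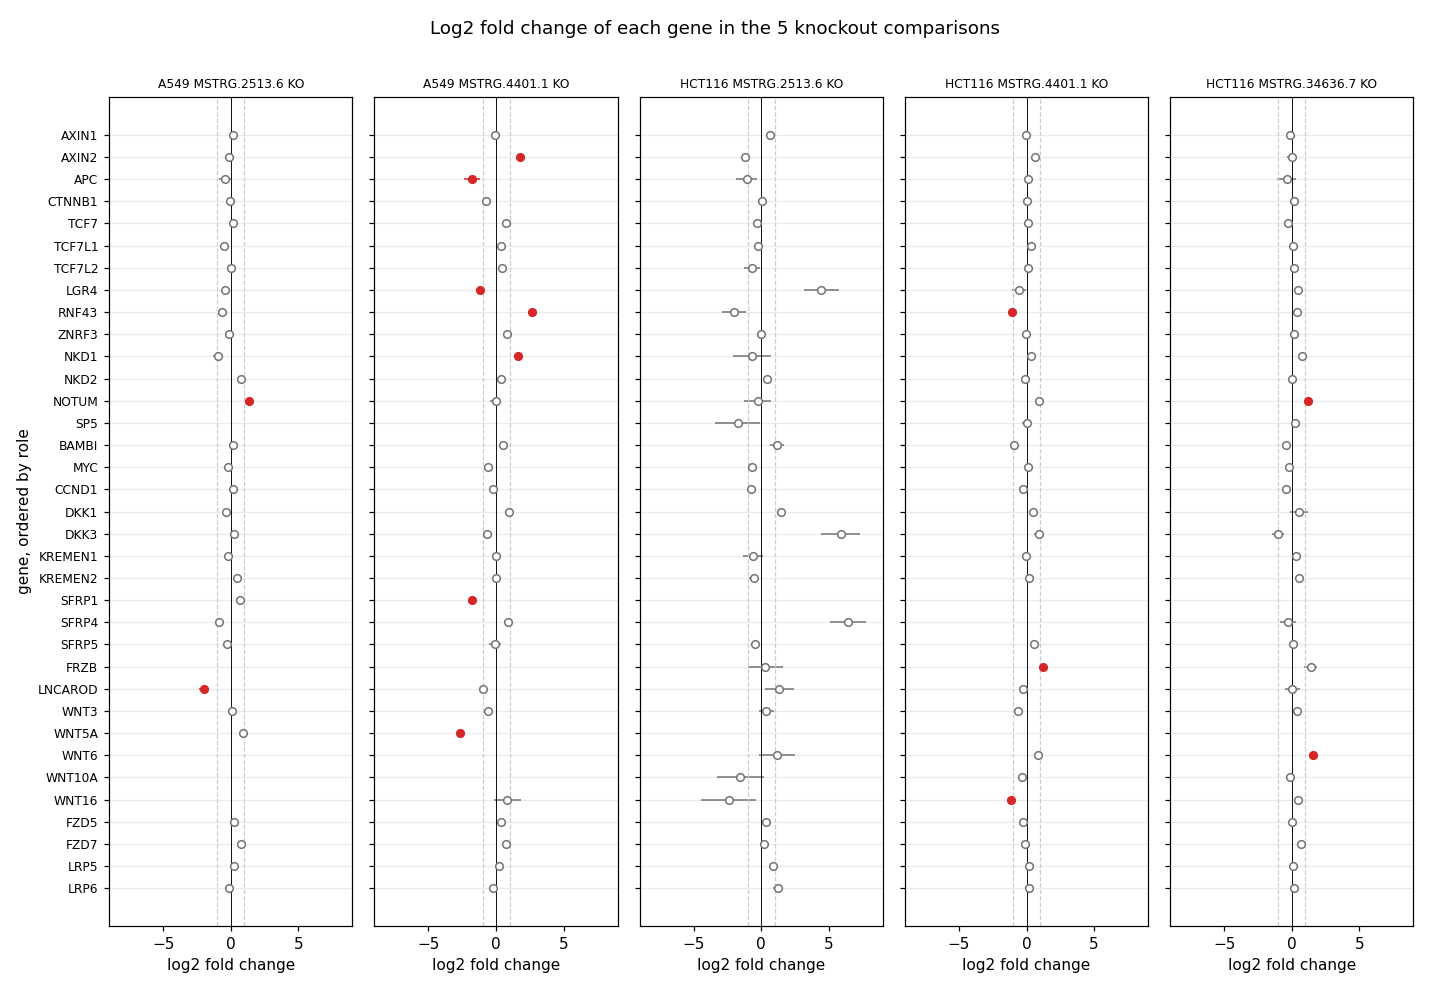
Log2 fold change against wild type (x axis) with its standard error (bars) for each tested gene (y axis, ordered by role) in the 5 KO comparisons. Red filled points are called, grey open points are not, and dashed lines mark a log2 fold change of 1 in each direction. WNT5A and SFRP1 are not drawn for HCT116 MSTRG.2513.6 KO because HCT116 WT B has no count of them.

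Whether a KO acted differently in the 2 lines was tested as an interaction, the log2 fold change in HCT116 minus that in A549, called at an adjusted p below 0.1. For MSTRG.4401.1, 17 of 35 tested members passed, where 26.9% of all genes did. RNF43, which rose in A549 and fell in HCT116 against WT B, had a difference of -3.70 (SE 0.25, adjusted p = 3.9e-06). AXIN2 and NKD1 had the larger log2 fold change in A549, with differences of -1.15 (SE 0.15, adjusted p = 0.000373) and -1.21 (SE 0.15, adjusted p = 0.000298). CTNNB1 differed by 0.81 (SE 0.14, adjusted p = 0.00225) and MYC by 0.73 (SE 0.12, adjusted p = 0.00186). LNCAROD did not pass (difference 0.71, SE 0.34, adjusted p = 0.165). These differences depended on the wild type. With WT A as the HCT116 wild type, that of AXIN2 turned to 0.90 (SE 0.20, adjusted p = 0.00869) and that of RNF43 shrank to -0.83 (SE 0.32, adjusted p = 0.0884), where 28% of all genes passed. NKD1 (-0.97), CTNNB1 (1.04) and MYC (0.80) kept their direction and passed. For MSTRG.2513.6, 8 of 35 tested members passed with all libraries, where 9.88% of all genes did, and 10 of 37 with S11 as the HCT116 KO, where 10.5% did. In the fit with all libraries, S8 and S9 showed the A549 pattern, so KO effect and line pattern cannot be told apart there. With S11, DKK1 differed by 2.39 (SE 0.15) and LNCAROD by 4.74 (SE 0.52).

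The rest of the pathway was followed with 55 other Wnt genes, among them the remaining ligands, Frizzled receptors, R-spondins, Dishevelled genes and TLE corepressors. Of these, 13 of 49 tested were called higher and 12 lower in HCT116 WT B than in A549 WT B, where 18.5% and 17.2% of all genes were. In A549 MSTRG.4401.1 KO, 2 of 44 were called higher and 4 lower (11.1% and 4.32% of all genes). In A549 MSTRG.2513.6 KO, 1 of 45 was called higher and 3 lower (1.13% and 1.79% of all genes). HCT116 MSTRG.4401.1 KO had 2 of 46 higher and 3 lower (0.996% and 1.62% of all genes), and HCT116 MSTRG.34636.7 KO 1 of 48 higher and 0 lower by edgeR (0.729% and 0.607% of all genes). HCT116 MSTRG.2513.6 KO had 0 of 47 in either direction by edgeR with all libraries (0.66% and 0.273% of all genes). An unadjusted edgeR p under 0.05 was reached by 20 of them, again without a count over all genes, so no excess can be read from it. With S11 alone, 7 of 48 were called higher, where 5.2% of all genes were.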

How the data were processed

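RNA-seq of total RNA depleted of rRNA was made with a directional kit. The files the authors deposited hold raw counts as whole numbers, 1 value per gene symbol and library. By the study's methods, HISAT2 placed the reads on GRCh38 and StringTie measured gene levels. The submitters' processing notes name Trim Galore 0.6.6, FastQC 0.11.9 and HISAT2 2.2.1. The strand setting of the counting is not given in the sources used here. The libraries numbered 1A to 3A list 3 more symbols, which were left out.

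Each comparison was fitted across all genes with edgeR 4.0.16 in R 4.3.3 (TMM, filterByExpr, glmQLFit, glmQLFTest, Benjamini-Hochberg), on the groups compared, with calls at FDR < 0.1 and |log2FC| > 1 as in the study's methods. SE is |log2FC| divided by the square root of F. CPM is relative to the library total, without TMM. With 25799359 to 102261808 counts per library, 3 counts equal 0.0293 to 0.116 CPM. Floors and intervals cover counting error only, because PCR copies of 1 molecule cannot be told apart. The fits were tested on simulated data with 200 changed genes each. They recovered 65 for HCT116 MSTRG.2513.6 KO, 95 for the MSTRG.2513.6 interaction and 181 to 198 in the other fits.

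Any of the 43 members may be named. Per-library values or ranges are given for called members and, in the KO comparisons, for AXIN2, CTNNB1, DKK1 and LNCAROD. The members, roles, marker lists and tests were chosen with earlier results of these data known. Alternatives were DESeq2 1.42.0, upper-quartile and RLE normalisation, no filter, 10 counts in every library, FDR < 0.05, each library left out, all libraries of a line in one fit, the other HCT116 wild type, a replicate block for MSTRG.34636.7 KO, and HCT116 MSTRG.2513.6 KO without S8 and S9. After the data were seen, one fit of HCT116 without S8 and S9 and the MSTRG.4401.1 interaction with WT A were added.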

Additional observations from a re-analysis of the deposited data

Results flagged for a closer look

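The interaction of KO and cell line passed in 17 members for MSTRG.4401.1 and in 8 for MSTRG.2513.6, so these are listed here. It is edgeR's test of the HCT116 log2 fold change minus the A549 log2 fold change, at an adjusted p below 0.1. Over all genes, 26.9% and 9.88% passed this test. No explanation was weighed.

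For MSTRG.4401.1, the feedback genes RNF43 (-3.70), NKD1 (-1.21), AXIN2 (-1.15) and ZNRF3 (-0.89) had lower values in HCT116, and NOTUM (0.96) a higher one. APC differed by 1.89, CTNNB1 by 0.81, MYC by 0.73 and TCF7 by -0.58. Among antagonists, DKK3 differed by 1.63 and DKK1 by -0.46. BAMBI, a Wnt target, differed by -1.37. Among ligands and receptors, WNT16 differed by -2.06, WNT5A by 7.19, FZD7 by -0.80, FZD5 by -0.63 and LRP6 by 0.44. WNT5A had no count in HCT116 WT B, so its fitted difference depends on the prior count and is no bound. Its HCT116 side was 9 counts in S10 and none in the other libraries of the KO, and without S10 it was not called (2.68). WNT16 kept its call under 5 of 18 alternatives. With WT A as the HCT116 wild type, AXIN2 turned to 0.90 and was called, RNF43 gave -0.83 (called), and DKK1, DKK3, FZD5, LRP6, NOTUM, WNT16 and WNT5A were not called.

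For MSTRG.2513.6 with all libraries, SFRP1 (14.08), WNT5A (10.92), SFRP4 (7.27), DKK3 (5.58), LGR4 (4.84), DKK1 (1.76) and LRP6 (1.34) had higher values in HCT116, and CCND1 (-0.98) a lower one. SFRP1 and WNT5A had no count in HCT116 WT B, so their fitted differences depend on the prior count and are no bounds. In this fit S8 and S9 of the HCT116 KO showed the A549 pattern. HCT116 WT B against A549 WT B gave the opposite sign for each of these members. Its log2 fold changes were -7.67 for SFRP4, -6.27 for DKK3, -5.55 for LGR4, -1.56 for LRP6, -1.27 for DKK1 and 1.22 for CCND1. The KO effect and the line pattern of these libraries cannot be told apart here. Without S8 and S9, DKK3 (0.73), LGR4 (0.99) and SFRP1 (-0.72) were not called, while DKK1 (2.39), SFRP4 (3.94), WNT5A (6.17), LRP6 (0.51) and CCND1 (-0.65) were.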

How the results depend on the processing

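Of 1282 values recomputed for 83 named results, 1111 kept direction and side of the threshold, 133 kept direction but lost the call, 18 gained one and 20 reversed. The cause of a change was not tested.

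The HCT116 MSTRG.2513.6 KO count (0) became 8 with DESeq2, 4 with at least 10 counts in every library, 8 with all HCT116 libraries in one fit and 7 without S8 and S9, and was 0 to 22 over libraries left out (22 without S11). Of all genes, 0.933% were called in the main fit, 8.26% with DESeq2 and 4.92% with at least 10 counts. The share was 11.6% in the one fit and 37.2% without S11. In this comparison CTNNB1 (0.032) gave -0.0334 with no filter, -0.0246 in the one fit and -0.0629 without S8 and S9. Over libraries left out it gave -0.0229 (without S8) to 0.0578 (without S11). LNCAROD gave -1.04 (without S11) to 1.83, and AXIN2 0.91 against WT A. The MSTRG.2513.6 interaction count (8) became 5 with at least 10 counts, 4 at FDR < 0.05, and 1 (without A549 KO S18) to 26 (without S11); every other library left out gave 2 to 4. Of all genes, 9.88% passed in the main fit, 10.2% with at least 10 counts and 3.24% at FDR < 0.05. The share was 1.16% without S18 and 40.8% without S11. SFRP1 gave -0.72 in this interaction without S8 and S9.

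The A549 MSTRG.2513.6 KO count (2) was 1 (without S17, S20, S21 or S22) to 3. Of all genes, 2.92% were called in the main fit and 1.69% to 2.95% over libraries left out. The HCT116 MSTRG.4401.1 KO count (3) was 0 in the one fit, 5 against WT A, where RNF43 gave 1.83, and 3 to 5 (without S12) over libraries left out. Of all genes, 2.62% were called in the main fit, 0.09% in the one fit and 10.2% against WT A. Over libraries left out the share was 1.97% to 2.41%. The WT lines' count (23, with 35.7% of all genes) was 15 with at least 10 counts (26.4%), and AXIN2 gave -0.38 with WT A. The WT A against WT B count (3, with 7.06% of all genes) was 5 with DESeq2 (4.98%). The one fit without S8 and S9 was chosen after the data were seen. Its counts were 2 for MSTRG.4401.1 KO, 3 for MSTRG.34636.7 KO and 5 for WT A against WT B. In the same order, 1.25%, 2.7% and 7.47% of all genes were called. The MSTRG.4401.1 interaction with WT A was also chosen after the data were seen. In it 12 members passed (17 with WT B), where 28% of all genes did, and AXIN2 gave 0.90.

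The MSTRG.34636.7 KO count (2) was 1 at FDR < 0.05, 0 in the one fit, 7 against WT B and 0 (without KO 1A, 2A or 3A) to 3. Of all genes, 1.34% were called in the main fit, 0.503% at FDR < 0.05 and 0.3% in the one fit. Against WT B the share was 14.5%, and over libraries left out 0.265% to 2.43%. CTNNB1 gave -0.13 against WT B, and AXIN2 0.0095 with no filter. Over libraries left out, AXIN2 gave -0.37 to 0.26, LNCAROD -0.42 to 0.84 and DKK1 -0.0037 (without WT A 1A) to 1.16. With the replicate block the count was 2, where 0.576% of all genes were called. Deviations of same-numbered libraries had r of 0.0095, 0.017 and 0.032, so no shared deviation was seen in the counts. Whether these libraries were prepared in pairs is not given in the sources used here.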
